A study of Mus musculus with 22 samples.

Results

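The oocyte Nlrp family followed here comprises Nlrp4a, Nlrp4b, Nlrp4c, Nlrp4e, Nlrp4f, Nlrp9a, Nlrp9b, Nlrp9c and Nlrp14. These 9 genes were chosen by symbol, out of the 22592 genes listed in each of 4 deposited tables of FPKM (fragments scaled by transcript length and by the size of the library), and all 9 are listed in every table. RNA of mouse oocytes and embryos had been sequenced with Smart-seq2, a full-length method for very small inputs, in 22 libraries. The question put by the study was how the loss of Setd2, which encodes the enzyme that trimethylates lysine 36 of histone H3, alters the oocyte and the embryo that develops from it.

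Growing oocytes of postnatal day 7 (P7) came from 2 libraries labelled Setd2+/- and 2 labelled Setd2-/-. Full-grown oocytes (FGO) of 8-week females were represented by 2 Setd2_Con and 2 Setd2_KO libraries. These were germinal vesicle oocytes taken 48 h after pregnant mare serum gonadotropin (PMSG). Zygotes, also of 8-week females and with a stated harvest time of 30 h after human chorionic gonadotropin (hCG), were represented by 2 Setd2_Con and 2 Setd2_KO libraries. At the time labelled 48 h, again from 8-week females, the 2 Setd2_Con libraries are of 2-cell embryos and the 2 Setd2_KO libraries of embryos still labelled 1-cell, so genotype and stage cannot be told apart there. In the spindle-transfer experiment, in which spindles were exchanged between Setd2 maternal-null and control oocytes of 8-week females, 2 libraries of 8-cell embryos are labelled Setd2+/- and 2 Setd2-/-. The labels do not say which spindle and which cytoplasm each of them carries. A Dnmt3l_Con and a Dnmt3l_KO library of full-grown oocytes, also of 8-week females and 48 h after PMSG, complete the set. Dnmt3l encodes a cofactor of the DNA methyltransferases that act in the growing oocyte. The labels name no Cre driver and do not say whether libraries of a group came from separate animals; p-values here therefore reflect no more than the scatter among libraries, which may be technical.

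NLRP proteins are members of the NOD-like receptor class and carry a pyrin domain, a nucleotide-binding NACHT domain and leucine-rich repeats. Some of them nucleate inflammasomes, the complexes that activate inflammatory caspases. A reproductive branch, enlarged in rodents by gene duplication, is instead transcribed in oocytes, and the best known of its genes, Nlrp5 (Mater), encodes a part of the subcortical maternal complex on which cleavage depends. Nlrp4f encodes another protein found with that complex. Nlrp14 is a germ-cell gene needed for female fertility, Nlrp4e has been linked to preimplantation development, and Nlrp9b is known also as an inflammasome sensor of intestinal epithelium. Maternal mRNAs of this kind are stored in the full-grown oocyte, which is transcriptionally silent, and are degraded between meiotic maturation and the 2-cell stage.

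In the GENCODE annotation of GRCm38, a later build than the mm9 named for the deposited tables, 8 members are protein-coding genes of chromosome 7. Nlrp4c lies at chr7:6045161-6105150, Nlrp4b at chr7:10687789-10730168, Nlrp9b at chr7:19991465-20073306 and Nlrp4e at chr7:23301192-23362277, next to Nlrp5. Nlrp9c at chr7:26322473-26403700, Nlrp4a at chr7:26435113-26476142 and Nlrp9a at chr7:26535023-26575615 are consecutive protein-coding genes. Nlrp14 stands among olfactory receptor genes at chr7:107166990-107198102, and Nlrp4f is alone on chromosome 13, at chr13:65177111-65205977.

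How far a read can be assigned to a single member depends on how alike the genes are. The first 90 coding bases of the 3 Nlrp9 genes are shown because the make-up of the Nlrp9 signal is followed below. Capitals mark the 20 positions at which the 3 sequences are not all the same.
Nlrp9a: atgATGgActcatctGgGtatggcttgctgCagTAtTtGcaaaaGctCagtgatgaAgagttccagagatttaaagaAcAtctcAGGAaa
Nlrp9b: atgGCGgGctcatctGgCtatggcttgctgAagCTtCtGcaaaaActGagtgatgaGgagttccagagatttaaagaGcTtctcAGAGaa
Nlrp9c: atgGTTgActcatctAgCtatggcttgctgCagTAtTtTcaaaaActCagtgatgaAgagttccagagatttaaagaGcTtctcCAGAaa

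The same stretch of the 5 Nlrp4 genes, shown because Nlrp4c and Nlrp4e are the closest pair of the family, has 25 positions, in capitals, at which they are not all the same.
Nlrp4a: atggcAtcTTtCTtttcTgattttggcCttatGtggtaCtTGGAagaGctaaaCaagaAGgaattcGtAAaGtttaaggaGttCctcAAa
Nlrp4b: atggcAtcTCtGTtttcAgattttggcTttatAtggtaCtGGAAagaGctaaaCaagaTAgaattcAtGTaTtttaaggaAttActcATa
Nlrp4c: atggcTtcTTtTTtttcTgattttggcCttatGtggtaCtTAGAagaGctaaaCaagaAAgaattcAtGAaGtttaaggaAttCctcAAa
Nlrp4e: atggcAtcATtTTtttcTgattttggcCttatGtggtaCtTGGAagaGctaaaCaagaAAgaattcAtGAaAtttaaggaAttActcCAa
Nlrp4f: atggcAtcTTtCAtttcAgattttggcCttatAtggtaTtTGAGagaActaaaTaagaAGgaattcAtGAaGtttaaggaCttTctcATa

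Over the whole coding sequence, Nlrp4c and Nlrp4e were the closest pair, with 93.9% of 2934 aligned bases identical. Nlrp9a and Nlrp9c followed with 87.4% of 3009 aligned bases. Identity ranged from 77.8% to 93.9% within the Nlrp4 genes, from 82.3% to 87.4% within the Nlrp9 genes and from 57.1% to 59.7% in the 23 pairs that cross these groups or include Nlrp14. The read length is not given in the sources used here, so exact windows of 75 and of 50 transcript bases were compared. The share of 75-base windows found in another member was 3.09% for Nlrp9b, 2.33% for Nlrp4e, 2.21% for Nlrp9a, 2.17% for Nlrp4c and 1.56% for Nlrp9c, and no such window of Nlrp14, Nlrp4a, Nlrp4b or Nlrp4f occurred in another member. Nlrp4e was the exception against other genes. Of its 75-base windows, 20.19% occurred in another annotated gene, most often Gm8486, so its FPKM is the least certain of the 9. With 50-base windows sharing was higher, with another member 9.03% for Nlrp4e, 8.55% for Nlrp4c, 6.54% for Nlrp9a, 6.22% for Nlrp9b, 4.99% for Nlrp9c and 1.52% for Nlrp4a. With any other gene it was 36.87% for Nlrp4e, most often Gm16443, 11.89% for Nlrp4c, and 7.08% for Nlrp4f, most often Nlrp4g. Gm8486 is not among the gene symbols listed in the tables. How the deposited values treat reads that match several genes is not given in the sources used here.

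**Figure D1:**
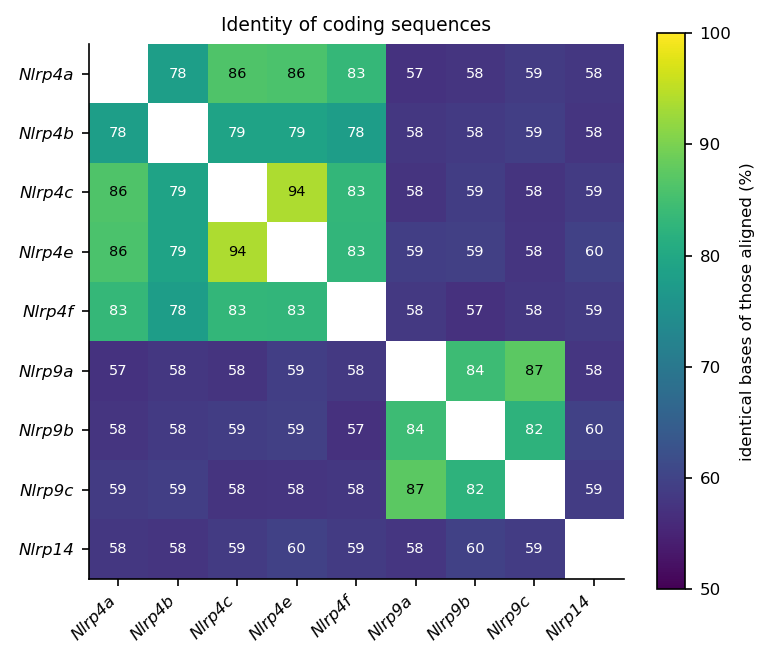
Percentage of identical bases among those aligned, for every pair of the 9 coding sequences (GENCODE transcripts). The Nlrp4 and the Nlrp9 genes form blocks of 77.8% or more, with Nlrp4c and Nlrp4e highest at 93.9%, while pairs that cross the blocks or include Nlrp14 lie between 57.1% and 59.7%.

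Some of the members also share promoter letters that the choice of genes did not use. RefSeq promoters (GRCm38.p6, the 250 bases before a start) were found for 8 members (not Nlrp14), with 10 starts in all. A run of 12 letters, CCAATCACATGG, ends 38 bases before a start of Nlrp4a, 42 bases before a start of Nlrp4b and 6 bases before that of Nlrp4c. It occurs on either strand in 6 of the 32851 promoters of the table (0.018%), 4 of them of these 3 genes and the others of Dcxr and Oscp1. Nlrp4a has another start, and the 250 bases before it lack the run. The first bases after that other start occur in a GENCODE transcript of Nlrp4a, while those after the Nlrp4a start shown do not. The run, in capitals, was picked after the sequences had been seen, as the longest run common to the 3 promoters shown. Its presence in these 3 was therefore fixed by the choice, and promoters of the other members lack it.
Nlrp4a promoter, chr7:26435364-26435613 (+): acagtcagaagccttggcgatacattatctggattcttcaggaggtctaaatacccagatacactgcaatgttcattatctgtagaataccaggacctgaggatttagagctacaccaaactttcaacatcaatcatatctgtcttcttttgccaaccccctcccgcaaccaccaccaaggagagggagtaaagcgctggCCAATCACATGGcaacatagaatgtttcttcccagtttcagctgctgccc
Nlrp4b promoter, chr7:10687543-10687792 (+): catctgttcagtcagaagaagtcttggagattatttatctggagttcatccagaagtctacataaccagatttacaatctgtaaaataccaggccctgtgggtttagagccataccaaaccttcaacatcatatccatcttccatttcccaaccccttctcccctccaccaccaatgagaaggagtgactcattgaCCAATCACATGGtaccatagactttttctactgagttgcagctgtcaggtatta
Nlrp4c promoter, chr7:6044911-6045160 (+): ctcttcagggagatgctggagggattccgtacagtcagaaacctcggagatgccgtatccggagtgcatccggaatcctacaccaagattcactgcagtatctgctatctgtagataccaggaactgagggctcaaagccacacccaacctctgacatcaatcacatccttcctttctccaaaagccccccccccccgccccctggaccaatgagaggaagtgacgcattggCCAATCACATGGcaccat

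Nlrp9a and Nlrp9c each carry CCAAT 3 times before the start. At least 3 copies, on either strand, occur in 2.791% of all promoters, Nlrp4c among them. CCAAT, in capitals, was likewise picked after seeing the sequences and is part of the longer run above. The first bases after the Nlrp9c start were not found in a GENCODE transcript of that gene.
Nlrp9a promoter, chr7:26534773-26535022 (+): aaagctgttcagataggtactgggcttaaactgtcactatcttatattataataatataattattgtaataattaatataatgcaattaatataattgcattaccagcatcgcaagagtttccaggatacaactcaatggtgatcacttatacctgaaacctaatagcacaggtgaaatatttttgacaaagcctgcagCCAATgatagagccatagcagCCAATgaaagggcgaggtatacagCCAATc
Nlrp9c promoter, chr7:26403701-26403950 (-): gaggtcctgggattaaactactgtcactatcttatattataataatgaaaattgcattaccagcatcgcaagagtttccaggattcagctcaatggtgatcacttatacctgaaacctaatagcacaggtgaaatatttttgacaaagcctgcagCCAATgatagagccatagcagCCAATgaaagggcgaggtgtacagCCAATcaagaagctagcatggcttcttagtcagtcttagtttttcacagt

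The promoters shown are alike along their length and not in these letters alone. Identical bases made up 64.4% to 73.2% of the 250 between the promoters of Nlrp4a, Nlrp4b and Nlrp4c shown and 78.0% between Nlrp9a and Nlrp9c. Nlrp9b had 42.0% with Nlrp9a, the lowest of all pairs, and 50.8% with Nlrp9c. Pairs of an Nlrp4 with an Nlrp9 promoter reached 54.8%, for Nlrp4f with Nlrp9b. The other Nlrp4a promoter, not shown, had 48.4% with the Nlrp4b and 49.2% with the Nlrp4c promoter shown. Of known motifs, TAATTG, a core of the element bound by the oocyte factor NOBOX, was found in 2 of the 10 member promoters and in 7.2% of all promoters. TAATTA, its other core, was found in 1 of 10 and in 4.8% of all, TATAAA in 1 of 10 and in 12.4%, GGATTA in 1 of 10 and in 6.3%, and the E-box CANNTG in 9 of 10 and in 66.2%. Both strands were searched. These matches are letters only and say nothing about binding.

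Setd2 itself was read in every library as a check of the labels. It was 4.75 and 4.35 FPKM in control and 0.968 and 0.927 in knockout full-grown oocytes, 12.1 and 8.85 against 1.30 and 1.73 in zygotes, and 53.2 and 43.0 against 1.42 and 1.74 at 48 h. It was lower in the knockout at all 3 stages (limma adjusted p = 0.0102, 0.000208 and 7.44e-08). At P7 it was 4.33 and 6.68 in the libraries labelled Setd2+/- and 3.67 and 3.21 in those labelled Setd2-/- (adjusted p = 0.799), and in the 8-cell embryos 18.2 and 17.1 against 15.4 and 18.1 (adjusted p = 0.934). At P7 both libraries labelled Setd2-/- lay below both labelled Setd2+/- without passing the test, and in the 8-cell set the ranges overlapped. Dnmt3l was 31.7 FPKM in the Dnmt3l_Con and 25.0 in the Dnmt3l_KO library. Of 11 oocyte markers, 10 were at 1 FPKM or more in every P7 library, all 11 in every full-grown oocyte library, and 3 in both libraries of each 8-cell group. In the oocyte libraries granulosa markers summed to at most 57.1 FPKM and leukocyte markers to at most 4.09 FPKM, beside oocyte marker sums of 3776 to 23970 FPKM. The highest leukocyte sum of any library, 17.8 FPKM, was in control 48 h embryos. Single granulosa markers differed in opposite directions between the genotypes of full-grown oocytes. Mean Inha was 0.668 FPKM in knockout against 15.0 in control, Cyp11a1 0.308 against 2.78 and Fshr 8.87 against 0.298 (limma adjusted p = 1.5e-05, 0.00298 and 0.00171). The depth, estimated from the smallest steps of the FPKM values, was 9330000 to 22400000 fragments in the Setd2 full-grown oocytes, 8130000 and 9770000 fragments in the Dnmt3l pair, and 3090000 to 7760000 fragments elsewhere, so that 1 FPKM of Nlrp14 stood for about 10 to 73 fragments.

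The members did not appear together during oocyte growth. At P7, Nlrp14 already stood at 508 and 789 FPKM in the Setd2+/- and at 418 and 694 FPKM in the Setd2-/- libraries, between rank 34 and rank 116 of all genes. Nlrp4f followed with 76.5 and 108 FPKM against 106 and 122 FPKM. Nlrp4c was low, at 9.57 and 5.38 FPKM against 4.94 and 6.52 FPKM. The order Nlrp14, Nlrp4f, Nlrp4c held in all 4 libraries, without overlap.

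The other 6 members were at or near 0 at P7. Their 24 values lay between 0 and 1.54 FPKM, and 13 of the 24 were listed at 0. In the Setd2 full-grown oocytes the same 6 genes lay between 26.5 and 252 FPKM, with no overlap in any of them. The 2 stages come from tables deposited separately, so the levels are set side by side without a test. Of the 2740 genes at 20 FPKM or more in all 4 Setd2 full-grown libraries, 141 (5.15%) were under 2 FPKM in all 4 P7 libraries. Among the members, 8 were at 20 FPKM or more, and 6 of those 8 were under 2 FPKM at P7.

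**Figure D2:**
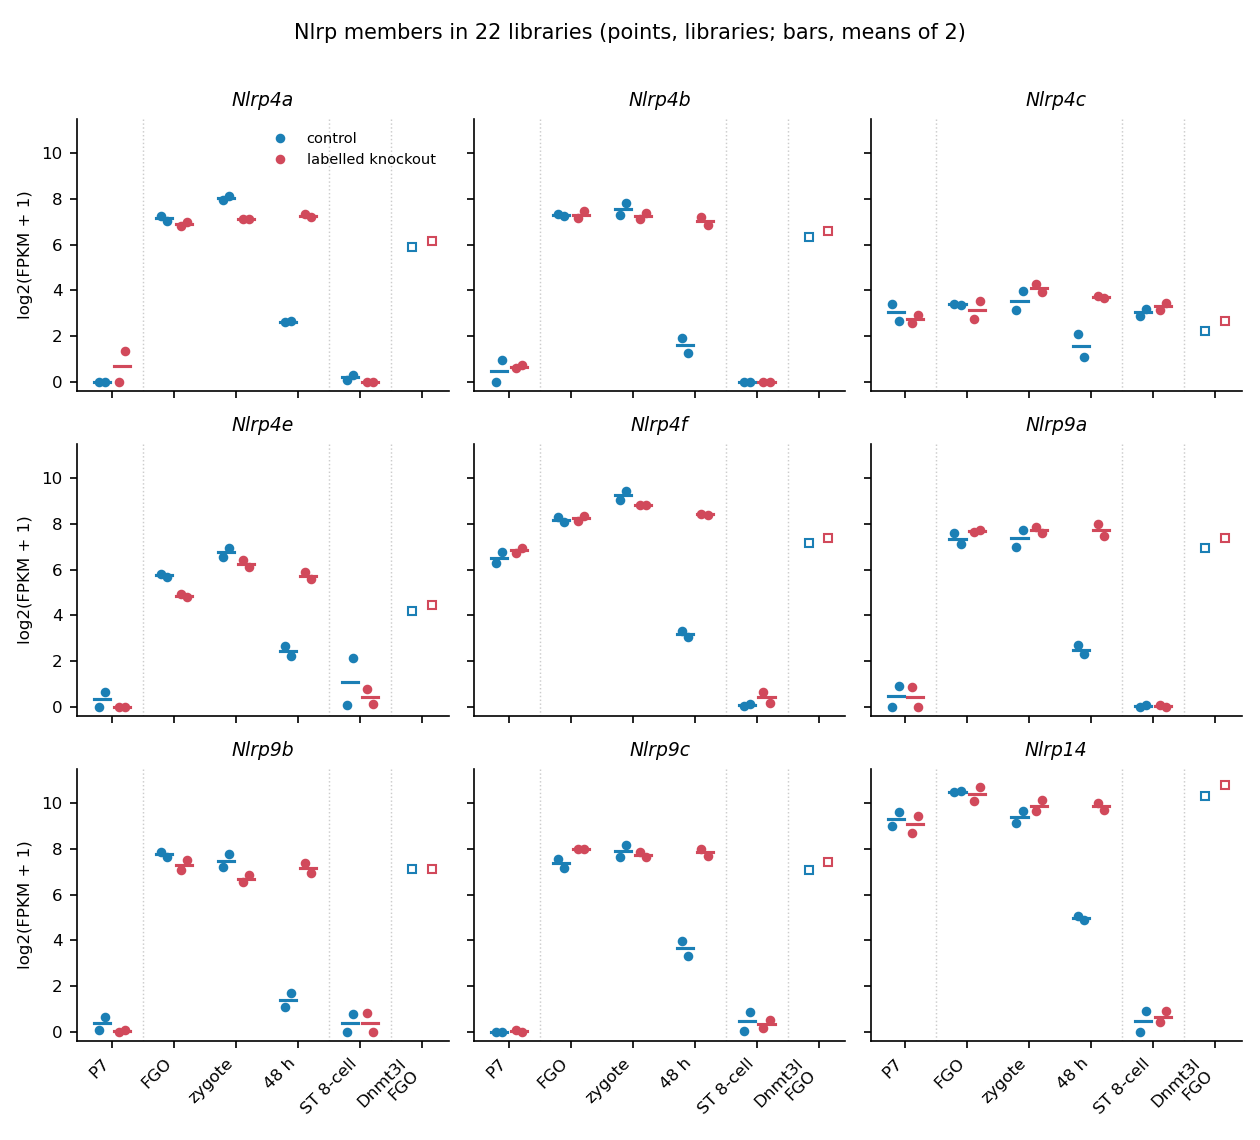
Level of each member, log2(FPKM + 1), in the 22 libraries. Filled points are libraries (blue, control; red, labelled knockout), bars are means of 2 libraries, open squares are the single Dnmt3l libraries, and dotted lines separate tables deposited separately. Only Nlrp14, Nlrp4f and Nlrp4c stand above 2 FPKM at P7, all members are present in full-grown oocytes and zygotes, all are lower in control than in knockout 48 h embryos, and Nlrp4c alone stands above 1 FPKM at the 8-cell stage in every library.

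In full-grown control oocytes, Nlrp14 was the most abundant member by far, with 1411 and 1496 FPKM, rank 36 and rank 32 of all genes. It made up 52.1% and 57.9% of the summed FPKM of the family. FPKM are scaled by transcript length, so levels may be compared between members, within the limit set by the shared sequence described above. Nlrp4f came next with 310 and 266 FPKM, then Nlrp9b with 232 and 201 FPKM, and the ranges of these 3 genes did not overlap.

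Nlrp9c (190 and 142 FPKM), Nlrp9a (191 and 137 FPKM) and Nlrp4b (160 and 153 FPKM) overlapped their neighbours in the order and are not separable from 2 libraries. Nlrp4a followed at 150 and 131 FPKM. Nlrp4e (55.6 and 50.6 FPKM) and Nlrp4c (9.60 and 9.33 FPKM) stood apart at the bottom. The summed FPKM of the 9 genes was 0.538% and 0.498% of each library's total, against 0.133% and 0.205% in the P7 Setd2+/- libraries. Between P7 and full-grown controls, the means differed 2.24-fold for Nlrp14, 3.12-fold for Nlrp4f and 1.27-fold for Nlrp4c, with the oocytes higher, again without a test.

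At P7 no member passed the test between the labels. Only Nlrp14, Nlrp4f and Nlrp4c reached the filter of 1 FPKM in 2 libraries. Their log2 changes, on the scale of log2(FPKM + 1) used for every change here, were -0.23 ± 0.23 (SE), 0.32 ± 0.19 and -0.30 ± 0.38 for Setd2-/- minus Setd2+/- (n = 2 libraries each), and none of the 3 passed limma's moderated test at an adjusted p of 0.05 (lowest adjusted p = 0.727). Over all 10794 genes tested, 9 passed (0.0834%) and 868 had an unadjusted p under 0.05. The 95% intervals, -0.73 to 0.27 for Nlrp14, -0.10 to 0.73 for Nlrp4f and -1.13 to 0.54 for Nlrp4c, leave room for changes of moderate size.

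In full-grown oocytes all 9 members were present in both genotypes, and a single member passed the test. Nlrp14 was 1102 and 1669 FPKM in the knockout, on both sides of the controls. Nlrp4f (281 and 322 FPKM), Nlrp4b (141 and 177 FPKM) and Nlrp4c (5.73 and 10.7 FPKM) likewise overlapped the controls. Nlrp4a, at 113 and 128 FPKM, lay just below its controls. The median log2 change of the family was -0.10, beside -0.19 over all 12199 genes tested.

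Nlrp4e was lower in knockout oocytes, with 29.1 and 26.5 FPKM against 55.6 and 50.6 FPKM. The log2 change was -0.91 ± 0.23 (SE, n = 2 and 2, limma adjusted p = 0.0418), or -0.72 relative to the median of all genes. It was the only 1 of 9 members called, in a comparison that called 6.92% of all genes and 4.89% in this direction. The call did not hold when any 1 of the 4 full-grown oocyte libraries was left out (log2 changes -0.98 to -0.84, highest adjusted p = 0.200), nor with a pseudocount of 0.1, with no filter or with rescaling by median ratios. The sequence shared with Gm8486 bears on the same gene, and its part in the difference was not tested.

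In the Nlrp9 signal of full-grown oocytes, the share of each of the 3 genes did not overlap between the genotypes while the summed levels did. The share of Nlrp9b was picked out after the values had been seen, and 6 of the 8 shares within the Nlrp4 and Nlrp9 sums did not overlap there. Shares of a sum are tied to each other, so the 8 are not separate observations. No such count was made over other genes, so how often it arises without a difference is not known here. Summed Nlrp9 was 613 and 479 FPKM in control and 585 and 647 FPKM in knockout full-grown oocytes. Nlrp9b gave 37.9% and 41.9% of it in control libraries and 22.6% and 28.1% in knockout libraries. It was the highest of the 3 in both controls and the lowest in both knockouts. Nlrp9b itself was 132 and 182 FPKM in the knockout against 232 and 201 FPKM, Nlrp9a 200 and 214 FPKM against 191 and 137 FPKM, and Nlrp9c 252 and 251 FPKM against 190 and 142 FPKM. None of the 3 passed limma's test by itself (log2 change -0.48, 0.36 and 0.62, adjusted p = 0.336, 0.481 and 0.185).

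In zygotes the Nlrp9b share was again lower in the knockout, 16.7% and 22.6% against 31.0% and 30.2%. It was 1 of 5 of the 8 shares that did not overlap there, a count with the same limits. Nlrp9b was 92.8 and 114 FPKM against 146 and 215 FPKM (log2 change -0.78 ± 0.29 (SE), limma adjusted p = 0.0601). The zygote contains RNA of the oocyte, so the 2 stages are not independent of each other. With 2 libraries against 2, an exact permutation test of the share cannot go below p = 0.33, so the share is given as a description. At 48 h the order was reversed, with 24.9% and 23.9% in knockout and 5.335% and 14.85% in control libraries. The control sums of Nlrp9 there were only 21.5 and 15.2 FPKM, and stage and genotype cannot be told apart. In the Dnmt3l pair, Nlrp9b gave 35.3% in the Dnmt3l_Con and 29.5% in the Dnmt3l_KO library.

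**Figure D3:**
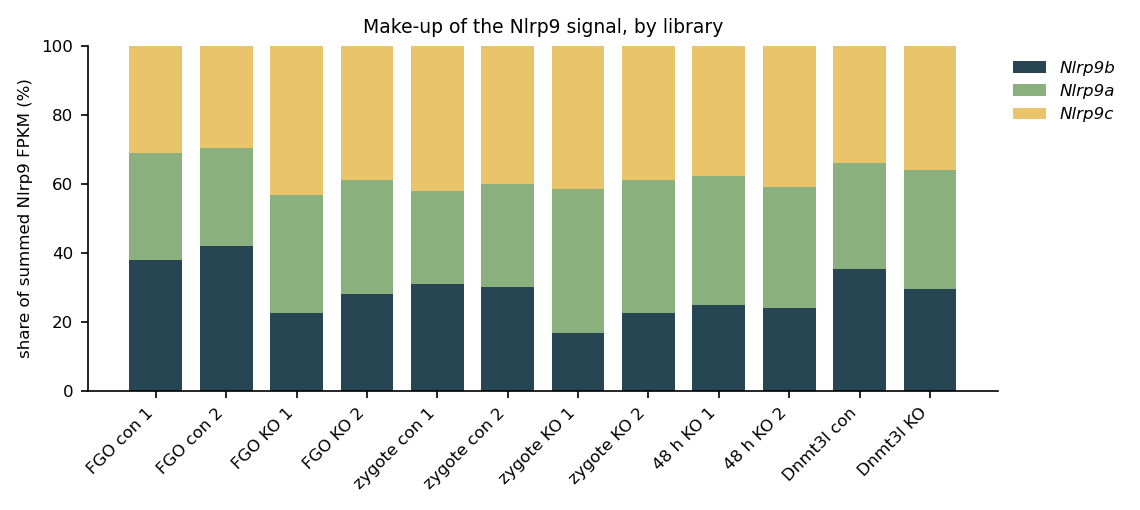
Share of each Nlrp9 gene in the summed Nlrp9 FPKM, for the libraries of full-grown oocytes, zygotes and knockout 48 h embryos (con, control; KO, knockout; numbers are replicates). Nlrp9b takes 37.9% and 41.9% in control full-grown oocytes, 22.6% and 28.1% in knockout ones, 31.0% and 30.2% in control zygotes and 16.7% and 22.6% in knockout zygotes. Control 48 h libraries, where it takes 5.335% and 14.85%, are not shown.

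The Dnmt3l pair, with 1 library per group and no replicate check, had Nlrp14 as the highest and Nlrp4c as the lowest member in both libraries. Nlrp14 was 1283 FPKM in the Dnmt3l_Con and 1772 FPKM in the Dnmt3l_KO library. Nlrp4f was 141 and 165 FPKM, Nlrp9c 135 and 171 FPKM, Nlrp9a 121 and 163 FPKM, and Nlrp9b 139 and 140 FPKM. All 9 members were listed higher in the Dnmt3l_KO library, by 0.0052 for Nlrp9b to 0.46 for Nlrp14 on the log2 scale (median 0.29). Of the 9708 genes at 1 FPKM or more in either library, 50.1% were higher, with a median of 0.00034. Granulosa markers moved the other way, with a sum of 57.1 FPKM in the Dnmt3l_Con and 26.2 FPKM in the Dnmt3l_KO library, and their part in the values was not tested. Whether library, animal or genotype set these differences cannot be told apart.

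From the full-grown oocyte to the zygote, control levels moved in opposite directions within the family. Nlrp14 fell from 1411 and 1496 to 559 and 794 FPKM (log2 change -1.12 ± 0.26 (SE), limma adjusted p = 0.00578). Nlrp4f rose from 310 and 266 to 528 and 696 FPKM (1.08 ± 0.20, adjusted p = 0.00158), Nlrp4e from 55.6 and 50.6 to 94.0 and 121 FPKM (0.99 ± 0.23, adjusted p = 0.00608), and Nlrp4a from 150 and 131 to 242 and 276 FPKM (0.88 ± 0.18, adjusted p = 0.00253). In this comparison 42.5% of all genes were called, 18.5% higher and 24% lower, so 4 of 9 members called is near the background.

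Nlrp14 still had the highest mean in control zygotes, but its lead narrowed. The share of Nlrp14 in the family was 52.1% and 57.9% in oocytes and 27.2% and 28.0% in zygotes, where its range overlapped that of Nlrp4f. The 3 Nlrp9 genes, Nlrp4b and Nlrp4c did not pass the test (log2 changes -0.28 to 0.53). The fall of Nlrp14 was no longer called without control zygote library 1, at a log2 change of -0.87 (highest adjusted p = 0.0578 over the 4 fits that left out a library). FPKM are shares of the RNA in a library, and fewer cells and less RNA per cell cannot be told apart, so a rise here means a larger share and not more molecules.

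In the knockout, 1 member passed the test for the same step. Nlrp4e rose from 29.1 and 26.5 to 84.7 and 67.3 FPKM (log2 change 1.41 ± 0.23 (SE), limma adjusted p = 0.0038), the only 1 of 9 called, where 17.7% of all genes were called. Nlrp14 went from 1102 and 1669 to 805 and 1115 FPKM (-0.52 ± 0.26, adjusted p = 0.195), Nlrp4f from 281 and 322 to 449 and 451 FPKM (0.58 ± 0.20, adjusted p = 0.0648) and Nlrp4a from 113 and 128 to 136 and 137 FPKM (0.19 ± 0.18, adjusted p = 0.499). Tested directly, a difference in the step between the genotypes passed for no member (0 of 9 by limma, lowest adjusted p = 0.109 for Nlrp4a, 1 with an unadjusted p under 0.05), where 9.39% of all genes passed.

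**Figure D4:**
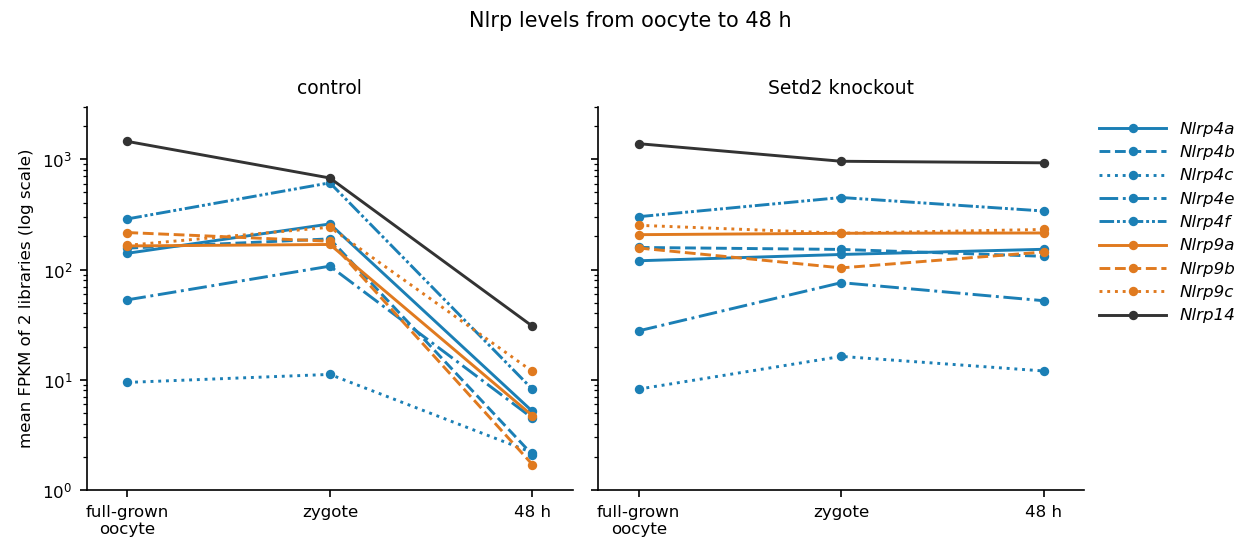
Mean FPKM of 2 libraries (log scale) from the full-grown oocyte through the zygote to 48 h, in control (left) and Setd2 knockout (right); blue, Nlrp4 genes; orange, Nlrp9 genes; black, Nlrp14. In controls all 9 lines fall steeply after the zygote, Nlrp14 from 677 to 30.6 FPKM, while in the knockout they stay level, Nlrp14 at 960 and 929 FPKM.

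Between the genotypes in zygotes, Nlrp4a was the member that passed the test. It was 136 and 137 FPKM in knockout zygotes against 242 and 276 FPKM in control zygotes, a log2 change of -0.91 ± 0.18 (SE, limma adjusted p = 0.00345). Knockout zygotes lay near knockout oocytes, which had 113 and 128 FPKM. The comparison called 31.6% of all genes and 13.1% in this direction, so 1 of 9 is not above the background.

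Nlrp4f (449 and 451 against 528 and 696 FPKM) and Nlrp4e (84.7 and 67.3 against 94.0 and 121 FPKM) also lay below their controls. Nlrp14 (805 and 1115 against 559 and 794 FPKM) lay above them. None of these passed (adjusted p = 0.121, 0.132 and 0.163). The median change of the 9 was -0.30, beside 0.01 for all genes. The sum of 11 oocyte markers was 7002 and 7682 FPKM in control and 17590 and 17860 FPKM in knockout zygotes, and its part in the values of the members was not tested.

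At 48 h all 9 members were lower in both control libraries, of 2-cell embryos, than in both knockout libraries, labelled 1-cell. How many of all genes were apart in this way was not counted. In control 2-cell embryos Nlrp14 was 32.8 and 28.4 FPKM, Nlrp9c 14.8 and 8.99 FPKM, Nlrp4f 9.07 and 7.34 FPKM and Nlrp4a 5.08 and 5.27 FPKM. Nlrp9a (5.48 and 3.97 FPKM), Nlrp4e (5.33 and 3.66 FPKM), Nlrp4c (3.25 and 1.11 FPKM), Nlrp4b (2.79 and 1.39 FPKM) and Nlrp9b (1.14 and 2.26 FPKM) were lower still. All 9 had fallen from the zygote, by a log2 change of -1.97 for Nlrp4c to -6.08 for Nlrp9b (limma, highest adjusted p = 0.000773), where 76.1% of all genes were called and 42.7% in this direction.

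The fall was deep even for abundant zygote RNAs. Measured on the means, 0.943% of the zygote level was left for Nlrp9b, 1.10% for Nlrp4b, 1.34% for Nlrp4f, 2.00% for Nlrp4a, 2.80% for Nlrp9a, 4.19% for Nlrp4e, 4.52% for Nlrp14 and 4.92% for Nlrp9c. Of the 721 genes at 100 FPKM or more in control zygotes, 20.4% were left at 5% or less, with a median of 17.8%, while 8 of the 8 members at that level were. At 10% or less it was 35.4%, and again 8 of 8 members. Such a fall was not particular to the members. Mean Nlrp5 went from 234 to 12.8 FPKM and mean Nlrp2 from 51.7 to 1.65 FPKM. Of 7 other NOD-like receptor genes tested, 5 were called lower over this step and 2 higher. The sum of 11 oocyte markers went from 7002 and 7682 to 278 and 306 FPKM. Nlrp4c, which started at 7.85 and 14.5 FPKM, kept 19.5%.

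Knockout embryos labelled 1-cell at 48 h kept all of them. Nlrp14 was 1021 and 837 FPKM, Nlrp4f 346 and 333 FPKM, Nlrp9c 255 and 207 FPKM, Nlrp9a 252 and 177 FPKM and Nlrp4a 159 and 147 FPKM. Nlrp9b was 168 and 120 FPKM, Nlrp4b 148 and 116 FPKM, Nlrp4e 57.9 and 46.4 FPKM and Nlrp4c 12.4 and 11.6 FPKM. Against knockout zygotes no member passed limma's test (0 of 9, lowest adjusted p = 0.473, 1 with an unadjusted p under 0.05), in a comparison that called 0.205% of all genes. The mean at 48 h was between 68.6% (Nlrp4e) and 139% (Nlrp9b) of the knockout zygote level.

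All 9 members were therefore higher in the knockout than in the control at 48 h. The log2 change ran from 2.12 ± 0.39 (SE) for Nlrp4c and 3.28 ± 0.23 for Nlrp4e to 5.45 ± 0.27 for Nlrp4b and 5.76 ± 0.29 for Nlrp9b, with 4.88 ± 0.26 for Nlrp14 (limma, highest adjusted p = 0.000507). The comparison called 73.8% of all genes and 43.2% in this direction, with a median of 0.43, and the median over the 9 was 4.88. The step from zygote to 48 h itself differed between the genotypes for 9 of 9 members, by 1.57 for Nlrp4c to 6.54 for Nlrp9b, where 66.2% of all genes were called and 36.7% in this direction. For Nlrp4c the difference in the step did not hold in 5 of the 8 fits that left out a library, those without control zygote library 2, knockout zygote library 2, control 48 h library 2 or either knockout 48 h library (values 1.07 to 2.08 over the 8). The oocyte markers moved the same way, from sums of 278 and 306 FPKM in the control to 15620 and 18460 FPKM in the knockout, and the 4 listed 2-cell markers the other way, from 88.0 and 114 FPKM to 7.18 and 36.0 FPKM. Stage and genotype cannot be told apart in these values.

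**Figure D5:**
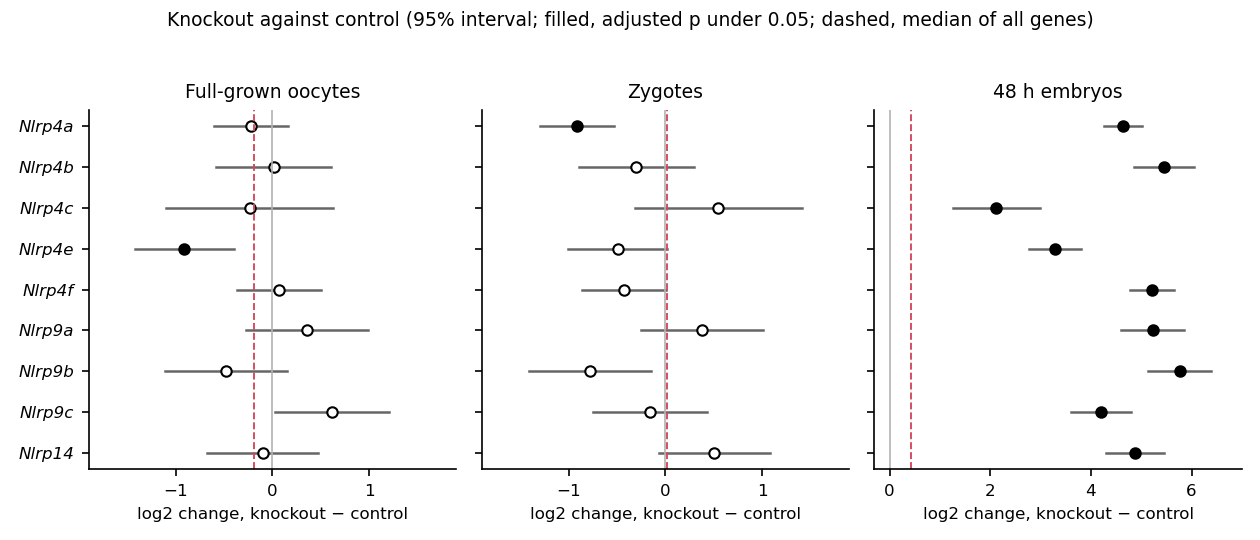
Difference of log2(FPKM + 1) between knockout and control for each member, with 95% intervals, in full-grown oocytes, zygotes and 48 h embryos; filled points passed limma's test at an adjusted p of 0.05, and the dashed line is the median of all genes. Nlrp4e alone is filled in oocytes and Nlrp4a alone in zygotes, and all 9 are filled at 48 h, between 2.12 and 5.76.

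At the 8-cell stage of the spindle-transfer embryos only Nlrp4c was at 1 FPKM or more in every library. It was 6.43 and 8.18 FPKM in the libraries labelled Setd2+/- and 7.82 and 9.97 FPKM in those labelled Setd2-/-, beside 9.60 and 9.33 FPKM in control oocytes and 3.25 and 1.11 FPKM in control 2-cell embryos of another table. Nlrp4e was uneven, at 0.04 and 3.42 FPKM against 0.71 and 0.09 FPKM. The other 7 members lay between 0 and 0.897 FPKM, with 11 of 28 values listed at 0. At a depth of 6170000 to 7760000 fragments, 1 FPKM of Nlrp14 is about 20 to 25 fragments.

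Nlrp4c was the 1 member tested there and did not pass the test between the labels (log2 change 0.25 ± 0.33 (SE), 95% interval -0.52 to 1.03, limma adjusted p = 0.781). Over all 9398 genes the comparison called 0%, although 1243 genes had an unadjusted p under 0.05. The group means of Nlrp4c spanned 2.18 to 16.3 FPKM over all stages, and the lowest was in control 2-cell embryos.

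Correlations between members were high with the 48 h controls and low without them. Over the 12 libraries from oocyte to 48 h, Pearson's r between members of log2(FPKM + 1) ranged from 0.817 to 0.993 (median 0.958, 36 pairs). Without the 2 control 48 h libraries it ranged from -0.703, for Nlrp4f with Nlrp14, to 0.84, for Nlrp4e with Nlrp4f (median 0.186). The libraries are 3 stages of 2 genotypes in 1 table, not independent points, and these values are descriptions without a test.

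The 5 genes most like the mean of the members, among 6471 candidates, were Gpr149 (r = 0.996), Rapgef5 (0.995), Tcte2 (0.995), Bmp15 (0.995) and Creb3l4 (0.994), and 574 genes had r of 0.95 or more. Bmp15 encodes an oocyte growth factor that acts on granulosa cells. Without the control 48 h libraries r was between 0.68 and 0.78. Nlrp14 alone was most like Nobox (0.997), the gene of an oocyte transcription factor, Oas1c (0.997), Ldhb, Gpr56 and Nprl2 (each 0.995). With Nlrp14, 482 genes had r of 0.95 or more, so these 5 are not set apart. For Nlrp14, r of the 5 was between 0.89 and 0.94 without those libraries. Nobox was 677 and 645 FPKM in control oocytes, 192 and 231 FPKM in control zygotes and 328 and 438 FPKM in knockout zygotes.

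The rest of the NOD-like receptor genes shows which part of the class is present. Of 24 other genes listed, 20 were in the tables, and 7 of these were tested in the table of oocytes, zygotes and 48 h embryos. None of the 7 passed in knockout full-grown oocytes, where 6.92% of all genes did. In knockout zygotes Nlrp2 was higher and Nlrc4 lower, beside 31.6% of all genes called. In knockout 48 h embryos Nlrp5, Nlrp2, Nlrc4, Nod2 and Naip1 were higher and Nlrp12 and Nlrx1 lower, beside 73.8% of all genes called and 43.2% called higher. Nlrp5 averaged 718 FPKM in knockout and 492 FPKM in control full-grown oocytes (log2 change 0.53, limma adjusted p = 0.176) and 309 against 12.8 FPKM at 48 h. Nlrp2, which encodes another maternal protein of the class, averaged 105 FPKM in knockout and 51.7 FPKM in control zygotes (1.00, adjusted p = 0.0123), and 90.2 against 1.65 FPKM at 48 h.

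Partners of the inflammasome were mostly at low level. Of the 13 listed, 4 were tested in the same table (Casp8, Nek7, Txnip and Panx1). None passed in knockout full-grown oocytes, and Casp8, the gene of an apoptotic caspase, was the 1 that was lower in knockout zygotes, beside 31.6% of all genes called. All 4 were higher in knockout 48 h embryos, beside 73.8% called and 43.2% called higher. Pycard, which encodes the adaptor of canonical inflammasomes, and Casp1, the caspase it recruits, did not reach the filter there. In the 8-cell table Pycard was 11.3 and 11.6 FPKM in the libraries labelled Setd2-/- and 1.84 and 2.86 FPKM in those labelled Setd2+/- (log2 change 1.91, limma adjusted p = 0.159). P2rx7, which encodes an ATP-gated channel, was 0.449 and 1.62 FPKM against 9.13 and 20.6 FPKM (-2.92, adjusted p = 0.159). Both were chosen for mention after their values were seen, and neither passed.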

How the data were processed

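Smart-seq2 RNA-seq of 22 libraries of mouse oocytes and embryos was read from 4 tables of FPKM that the authors deposited separately. Per the submitters' processing notes, TopHat2 2.0.11, Cufflinks 2.0.2 and mm9 were used; the settings for reads with several matches are not given in the sources used here. Columns of the Dnmt3l table are named as merged, and each was used as 1 library. FPKM keep no counts, so depth was estimated from the smallest steps of FPKM times transcript length over 3595 genes with 1 annotated transcript.

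Values were tested as log2(FPKM + 1) with limma 3.58.1 (R 4.3.3; empirical Bayes with a trend) within each table, on genes at 1 FPKM or more in 2 libraries, two-sided, with Benjamini-Hochberg adjustment over all genes tested at 0.05. The 12 libraries of oocytes, zygotes and 48 h embryos shared a fit with 6 residual degrees of freedom. On simulated data, 89.5% of 4-fold changes were recovered for the full-grown oocytes, 82.5% for zygotes and 88.5% for 48 h embryos (12199 genes each), 63% at P7 (10794 genes) and 48% for the 8-cell embryos (9398 genes). For the difference of the steps, 63% were recovered to the zygote and 59% to 48 h (12199 genes each). The share of calls that were false was at most 7.73%, in the full-grown oocytes. The changed genes were drawn from the better expressed ones, with normal noise and the group means otherwise equal. Smaller changes were not simulated, so these rates do not apply to them or to genes of low level. Sequences came from GENCODE vM21 transcripts and RefSeq promoters (GRCm38.p6), aligned with Biopython 1.88.

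All 9 members are named, with Setd2 and Dnmt3l for the labels, the 5 genes most alike (mean of 5 FPKM or more) and called genes of the other lists; Nlrp5, Nlrp2, Casp1 and the other partner genes were picked for their known roles. The members and lists were chosen with earlier results of these data known. Alternatives were pseudocounts of 0.1 and 5, filters, rescaling by median ratios, a replicate block, other fits and leaving out each library.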

Additional observations from a re-analysis of the deposited data

Results flagged for a closer look

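The step from zygote to 48 h differed between the genotypes for all 9 members, by limma's test of the difference of the 2 log2 changes. In controls the members fell over this step, and in the knockout none passed the test. The difference, knockout minus control on the scale of log2(FPKM + 1), was 6.54 for Nlrp9b, 5.75 for Nlrp4b, 5.64 for Nlrp4f and 5.55 for Nlrp4a. The difference was 4.85 for Nlrp9a, 4.37 for Nlrp14, 4.36 for Nlrp9c, 3.77 for Nlrp4e and 1.57 for Nlrp4c. For Nlrp4c the call was lost in 5 of the 8 fits that left out a library and with a pseudocount of 5, no filter or rescaling. Over all genes the median difference was 0.36, and 66.2% of genes were called in either direction. The control libraries at 48 h are labelled 2-cell and the knockout libraries 1-cell, so that stage and genotype cannot be told apart.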

How the results depend on the processing

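The counts of members called stayed the same under every setting tried, leaving out libraries aside, at P7 (0), at 48 h (9), at the 8-cell stage (0) and in the 4 steps between stages. The difference in the step from zygote to 48 h gave 8 or 9, and Nlrp4c was the member lost with a pseudocount of 5, with no filter or with rescaling. In full-grown oocytes the count of 1 became 0 with a pseudocount of 0.1, with no filter, with rescaling by median ratios and in fits that left out a library (0 to 0), and 2 with only the compared groups in the fit, where Nlrp9c joined. In zygotes it became 2 with a pseudocount of 5 or a filter of 5 FPKM, where Nlrp9b joined. The cause of these moves was not tested.

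Replicate numbers did not pair the libraries: same-numbered deviations correlated at 0.0416 at P7, 0.186 for full-grown oocytes, 0.0742 for zygotes, 0.00244 at 48 h and 0.0724 in 8-cell embryos, over 2 pairs each. With a replicate block the full-grown oocyte count was 0, and no other count of members moved. The block called 129 genes at P7, where the fit without it called 9, and 15 of all genes in 8-cell embryos, where it called 0.

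Calls over all genes moved more. In full-grown oocytes the 844 genes became 489 to 2787 under other settings and 43 to 145 with a library left out. With a library left out, they were 5 to 16 at P7 against 9, 2256 to 3935 in zygotes against 3850, 0 to 49 in 8-cell embryos against 0, 3146 to 4322 in the control step to the zygote against 5190, 313 to 2885 in the knockout step against 2154, 11 to 172 in the knockout step to 48 h against 25, and 320 to 1964 for the difference of the steps to the zygote against 1145. Other settings gave 0 to 129 at P7, 5 to 40 in the knockout step to 48 h and 603 to 1260 for that difference.

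Signs turned only for members that were not called. With rescaling, the full-grown oocyte changes became 0.21 for Nlrp14, 0.079 for Nlrp4a and 0.033 for Nlrp4c. The knockout step to the zygote became -0.25 for Nlrp9a and -0.10 for Nlrp4a, and the difference of those steps -0.29 for Nlrp9a. With a library left out, changes at P7 ranged from -0.60 to 0.13 for Nlrp14 and -0.66 to 0.066 for Nlrp4c. In full-grown oocytes they ranged from -0.40 to 0.20 for Nlrp14, -0.15 to 0.18 for Nlrp4b, -0.64 to 0.16 for Nlrp4c and -0.043 to 0.18 for Nlrp4f, and in zygotes from -0.42 to 0.10 for Nlrp9c. In the control step to the zygote they were -0.0087 to 0.52 for Nlrp4b, -0.24 to 0.57 for Nlrp4c and -0.35 to 0.39 for Nlrp9a. In the knockout step they were -0.22 to 0.11 for Nlrp4b and -0.082 to 0.16 for Nlrp9a, with -0.35 to 0.39 for Nlrp9a in the difference. In the knockout step to 48 h they were -0.27 to 0.20 for Nlrp14, -0.26 to 0.24 for Nlrp9a and -0.044 to 0.26 for Nlrp9c.

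FPKM without counts give no counting error, and 2 libraries a group limit every interval. Where a group keeps 1 library, it is assumed to vary like the others. No protein sequence was compared here.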
